A study of Mus musculus with 8 samples.

Results

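The EGF and FGF receptors examined here are 8 genes taken by symbol: Egfr, Erbb2, Erbb3 and Erbb4 of the EGF receptor family, Fgfr1, Fgfr2 and Fgfr3 of the FGF receptor family, and Hbegf, which is not a receptor but encodes a ligand of EGFR. All probe sets annotated to one of these symbols alone were taken, whatever their signal, which gave 21 of the 45101 probe sets on the array and 8 of 18194 named genes. Of the 21, 10 reached a signal of at least 50 on at least 2 of the 8 arrays and were tested, and they covered 6 genes. Erbb2 and Erbb4 had no tested probe set. The rule uses symbols and no measured value.

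The arrays held RNA from mouse neural stem cells (NSCs) grown as secondary neurospheres, which are floating clusters of NSCs and their progeny. There were 4 groups of 2 arrays, labelled #1 and #2: MHM + GF for 3 days, MHM + GF for 7 days, rcCHIL3 for 3 days and rcCHIL3 for 7 days. MHM + GF is the medium hormone mix supplemented with EGF and FGF-2, and rcCHIL3 is medium conditioned by HEK293T cells, a human embryonic kidney line, that had been transfected with Chil3 (the labels name the protein ECF-L). Per the methods, this conditioned medium is MHM with no EGF or FGF-2 named as added. The presence of rcCHIL3, the other products of HEK293T cells and the absence of added EGF and FGF-2 therefore cannot be told apart in any comparison of the media. Neither genotype nor strain is given per array, the age is adult brain in the series text but embryonic or adult striatum in the methods, and RNA of a whole culture was measured.

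EGFR and its relatives are receptor tyrosine kinases that pair up when an EGF family ligand binds. EGFR binds EGF, TGF-alpha and HB-EGF, ERBB3 and ERBB4 bind neuregulins, and ERBB2 has no known ligand of its own and acts as a partner. FGF receptors bind FGFs together with heparan sulphate chains on syndecans and glypicans. Both families signal through RAS and ERK, and EGF with FGF-2 is the usual mitogen mix for neurospheres. The comparison of the media asked which genes NSCs expressed differently in rcCHIL3, and here it is read for the receptors of the growth factors that MHM + GF contains.

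The deposited average signal was between 267 and 317 per array, and each array was rescaled to an average of 100, the scale of all signals below. Between 30.1% and 31.5% of probe sets reached a signal of 50, and arrays of the same group correlated at 0.992 to 0.994 on the log2 scale. With 2 arrays per group, the precision is limited by their number, and the p-values measure the spread between these arrays. Of 11 neural stem and progenitor markers, 10 were tested. Their signal summed to 9278 to 9468 and 9245 to 9263 in MHM + GF and to 7766 to 8051 and 8437 to 8472 in rcCHIL3, at 3 and 7 days. Bright genes weigh most in this sum, and Vim had means of 2799 and 2501 in MHM + GF and 1632 and 2494 in rcCHIL3 at 3 and 7 days. Sox2 had group means of 1728 to 2055. The mean of Nes was 187 in MHM + GF at 3 days but 29.9 in MHM + GF at 7 days, 25.2 in rcCHIL3 at 3 days and 13.8 in rcCHIL3 at 7 days. Nes passed the filter only through MHM + GF at 3 days, so it had to be highest there. Gfap, an astrocyte and neural stem cell gene, had means of 52.0, 1145, 910 and 1546 in the same order. The lists of these genes were mixed. At 3 days 4 of the 10 stem and progenitor markers were higher in rcCHIL3 and 4, Nes and Hes1 among them, lower. Hes1 passed the filter only through MHM + GF arrays, so the places of Nes and Hes1 in this count are a description. Of 8 tested astrocyte markers, 4 were higher, Gfap among them, and 3 lower, where 30.3% and 22.1% of all genes tested were higher and lower. In RNA of whole cultures, fewer cells of a type and less RNA per cell cannot be told apart. No summed signal of 7 microglial or 6 endothelial markers exceeded 71.8.

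At 3 days, 5 of the 10 tested probe sets were lower in rcCHIL3 than in MHM + GF (all 3 of Egfr, and 1 each of Fgfr1 and Fgfr3) and 2 were higher (1 each of Fgfr2 and Hbegf), by limma with Benjamini-Hochberg adjustment over 15679 probe sets at a threshold of 0.05. Over the array, 22.5% of tested probe sets were lower and 27.7% were higher in this comparison. At 7 days, 4 were lower (3 of Egfr, 1 of Fgfr1) and 4 were higher (Erbb3, Fgfr3 and both of Hbegf), against 22.7% lower and 21.3% higher over the array. Erbb3 passed the filter only through rcCHIL3 at 7 days and had to be highest there, so its place in this count is a description. The median log2 change of the 10 was -0.15 at 3 days and 0.06 at 7 days, and that of all tested probe sets was 0.03 and -0.01. The members thus moved in both directions, and they are described one by one.

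**Figure D1:**
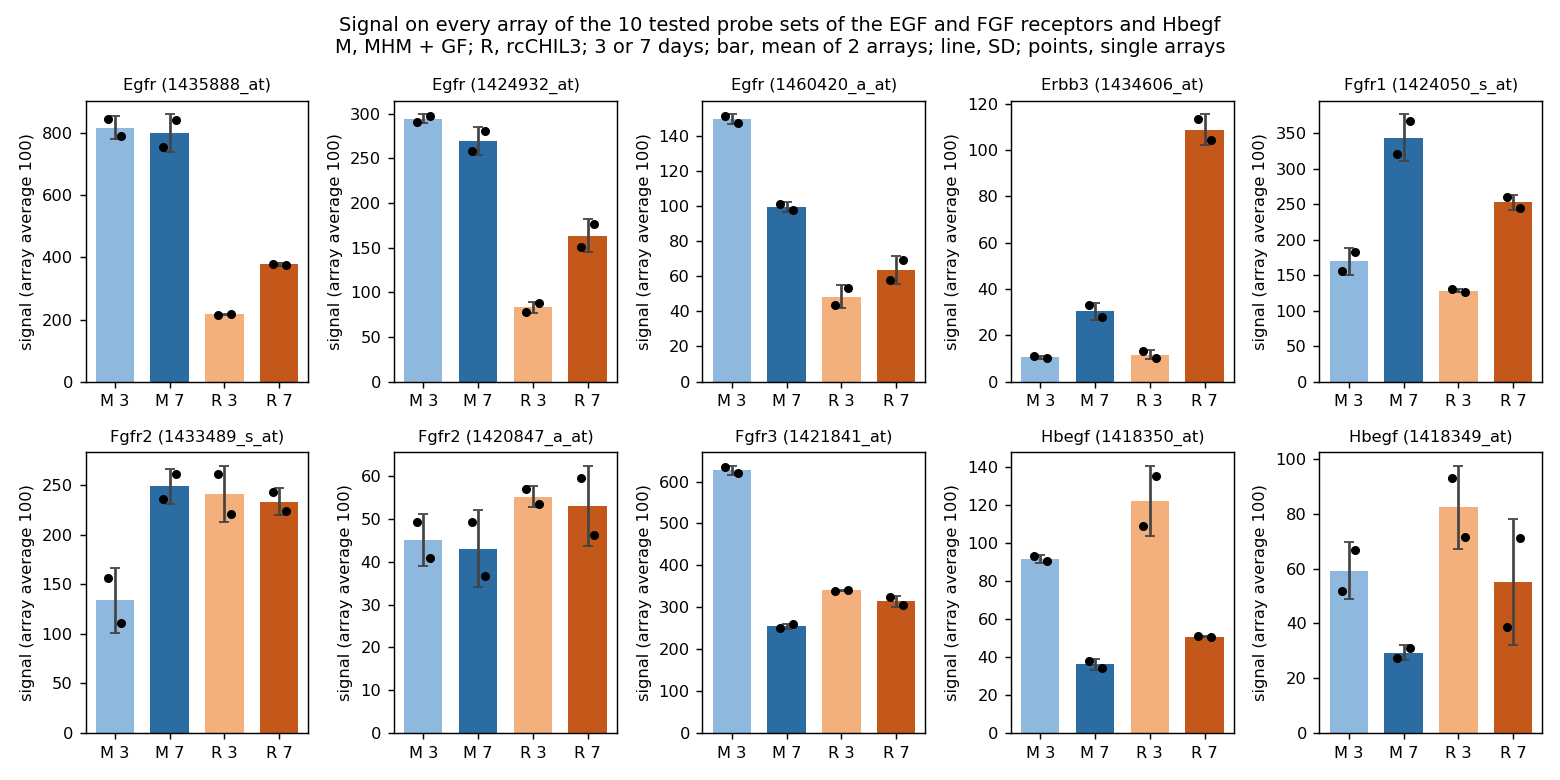
Signal (array average 100, linear axis from 0) of the 10 tested probe sets in the 4 groups, with bars for the mean of 2 arrays, lines for the SD and points for single arrays. Each tested Egfr probe set had both MHM + GF groups above both rcCHIL3 groups, Fgfr1 was higher at 7 than at 3 days in both media, and Erbb3 reached 104 and 113 in rcCHIL3 at 7 days only.

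Egfr, the receptor of EGF, had 7 probe sets, 3 of which were tested. The brightest (1435888_at) had signals of 846 and 793 in MHM + GF at 3 days, 757 and 844 in MHM + GF at 7 days, 215 and 218 in rcCHIL3 at 3 days, and 380 and 375 in rcCHIL3 at 7 days. Every MHM + GF array was above every rcCHIL3 array, and the rcCHIL3 arrays of 7 days were above those of 3 days. The signal at 3 days was 3.79-fold lower in rcCHIL3, and the log2 change was -1.83 (SE 0.07, adjusted p = 3.6e-09, limma). At 7 days it was 2.12-fold lower, with a log2 change of -1.04 (SE 0.07, adjusted p = 7.8e-07, limma). Within rcCHIL3 the signal rose by 0.75 from 3 to 7 days on the log2 scale (SE 0.07, adjusted p = 1.2e-05, limma). Within MHM + GF the log2 change over the same time was -0.03, with a 95% interval of -0.19 to 0.12. The rcCHIL3 effect at 7 days was less negative than at 3 days by 0.78 on the log2 scale (SE 0.10, adjusted p = 9.1e-05, limma).

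The other tested probe sets of Egfr ran the same way between the media. Signals of 1424932_at were 291 and 298 in MHM + GF at 3 days, 258 and 281 in MHM + GF at 7 days, 78.2 and 87.7 in rcCHIL3 at 3 days, and 150 and 177 in rcCHIL3 at 7 days. Its log2 change between the media was -1.61 at 3 days (SE 0.09, adjusted p = 6.8e-08, limma) and -0.66 at 7 days (SE 0.09, adjusted p = 0.00017, limma), and it rose by 0.83 with time in rcCHIL3. Signals of 1460420_a_at were 151 and 148, 101 and 97.7, 43.7 and 53.2, and 57.9 and 69.1 in the same order of groups, so that no rcCHIL3 array reached the MHM + GF arrays here either. Its log2 change between the media was -1.31 at 3 days (SE 0.10, adjusted p = 1.1e-06, limma) and -0.52 at 7 days (SE 0.10, adjusted p = 0.0019, limma). This probe set alone also fell with time in MHM + GF, by 0.50 on the log2 scale, and its rise of 0.29 in rcCHIL3 lay at the threshold (adjusted p = 0.04998, limma) and was lost under 12 alternatives. Of these, 6 left out 1 array, either array of both MHM + GF groups, the first of rcCHIL3 at 3 days or the second of rcCHIL3 at 7 days (adjusted p = 0.058 to 0.30, limma). The 4 other probe sets of Egfr had signals of at most 22.0 on any array. One of them (1451530_at) had signals of 22.0 and 19.4 in MHM + GF and 7.43 and 7.71 in rcCHIL3 at 3 days. In a fit to all probe sets without a filter it was also lower in rcCHIL3 at 3 days (log2 change -0.56, adjusted p = 0.0048, limma), where 9.29% were lower over the array. Its change between the media at 7 days was -0.16 (adjusted p = 0.36, limma) and its rise with time in rcCHIL3 was 0.14 (adjusted p = 0.50, limma). Neither passed.

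The upstream sequence of Egfr is shown because it is the receptor that differed most between the media at 3 days. It was read from a table of RefSeq promoters for the build GRCm38.p6, from which 5 of the 8 genes were taken (Egfr, Erbb2, Erbb4, Fgfr2 and Fgfr3). The 250 bases before the start of Egfr, at chr11:16751953-16752202 on the + strand, are printed 5′ to 3′ with the GC box in capitals. The GC box was searched as GGGCGG on both strands, so it can appear as its complement.
Egfr: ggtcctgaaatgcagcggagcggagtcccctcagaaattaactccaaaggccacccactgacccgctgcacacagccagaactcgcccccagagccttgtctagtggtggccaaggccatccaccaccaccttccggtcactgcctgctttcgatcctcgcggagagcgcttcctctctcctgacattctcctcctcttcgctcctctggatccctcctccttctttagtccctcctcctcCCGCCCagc
The stretch had 60.8% G and C and 11 CpG dinucleotides, where the median over 32851 promoters of this length was 52.4% and 6. It held 1 GC box, a motif that 32.7% of all these promoters held. No match on either strand was found for the core promoter element TATAAA, which 12.4% of all promoters held. The same was true of the AP-1 site TGANTCA (6.75%), the cAMP response element TGACGTCA (1.55%) and the E-box CACGTG (6.02%). These are letter matches in one window and do not show binding.

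Erbb2, the partner receptor without a ligand, had 1 probe set (1424919_at), whose signals lay between 14.1 and 31.7 on all 8 arrays, under the filter. The 1 probe set of Erbb4, a neuregulin receptor, did not exceed 4.16. No change is given for either.

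Erbb3, a neuregulin receptor with little kinase activity of its own that is known from the Schwann cell and oligodendrocyte lines, had 1 tested probe set (1434606_at). Its signals were 10.9 and 10.1 in MHM + GF at 3 days, 33.0 and 27.8 in MHM + GF at 7 days, 13.0 and 10.3 in rcCHIL3 at 3 days, and 113 and 104 in rcCHIL3 at 7 days. Both media at 3 days overlapped at the lowest level, MHM + GF at 7 days lay above them, and rcCHIL3 at 7 days stood above all others. The probe set passed the filter only through the 2 arrays of rcCHIL3 at 7 days, so it had to differ there and its tests are a description. The log2 change between the media was 0.05 at 3 days (95% interval -0.17 to 0.28) and 1.36 at 7 days (SE 0.10, adjusted p = 2.1e-06, limma), a signal 3.58-fold higher. From 3 to 7 days it rose by 0.72 in MHM + GF (adjusted p = 0.00012, limma) and by 2.03 in rcCHIL3 (adjusted p = 1.6e-07, limma). The second probe set (1452482_at) had signals of at most 3.63 on all arrays and did not show this level.

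Markers of cell lines in which Erbb3 is known are given beside it, and their lists did not all run its way. Of 11 markers of myelinating oligodendrocytes, 7 were tested. All 7 were higher in rcCHIL3 at 3 days, when Erbb3 was not called, and 4 were higher and none lower at 7 days, where 30.3% and 21.8% of all genes tested were higher. One of these, Opalin, passed the filter only through rcCHIL3 at 7 days. The signal summed over the list was 3658 to 3692 in MHM + GF at 3 days, 5644 to 5690 in MHM + GF at 7 days, 7512 to 7660 in rcCHIL3 at 3 days and 7308 to 7631 in rcCHIL3 at 7 days. Mag rose in both media with time (means 31.5 and 175 in MHM + GF, 131 and 382 in rcCHIL3). Ugt8a of the same list fell in both (358 and 309 in MHM + GF, 1658 and 1006 in rcCHIL3), and Mog did not exceed a mean of 9.85 in any group. Of 8 oligodendrocyte progenitor markers, 7 were tested, and 6 of them fell with time in each medium, where 24.2% of all genes tested fell in MHM + GF and 18.1% in rcCHIL3 and 34.0% and 20.4% rose. The list summed to 2993 to 3034 at 3 days and 1465 to 1531 at 7 days in MHM + GF, and to 3717 to 3784 at 3 days and 1424 to 1432 at 7 days in rcCHIL3. Of 8 Schwann and neural crest markers, 3 were tested, and the list summed to 571 to 631 and 366 to 385 in MHM + GF and 1073 to 1109 and 982 to 1026 in rcCHIL3 at 3 and 7 days. Among these, Ngfr, Foxd3 and Ncmap did not exceed a mean of 10.7 in any group. Sox10 is also on the oligodendrocyte progenitor list and enters both sums. Its means were 267 and 171 in MHM + GF and 417 and 198 in rcCHIL3 at 3 and 7 days. Of 6 melanocyte markers, 2 were tested (Dct and Mitf, both higher in rcCHIL3 at both days), and the list summed to 66.0 to 97.6 and 135 to 161 in MHM + GF, and to 215 to 222 and 665 to 704 in rcCHIL3. Dct made up most of the last sum, with a mean of 534. It passed the filter only through the rcCHIL3 arrays, so Dct had to be higher there and its place in this count is a description. Mitf had means of 47.6 and 76.3 in MHM + GF and 123 and 100 in rcCHIL3 at 3 and 7 days, and Tyrp1 had 2.88, 25.4, 22.3 and 27.4 in the same order, while Tyr, Pmel and Mlana did not exceed a mean of 19.8 in any group. Sums include members of a list that were on the array but not tested. The part of these lists in the signal of Erbb3 was not tested.

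**Figure D2:**
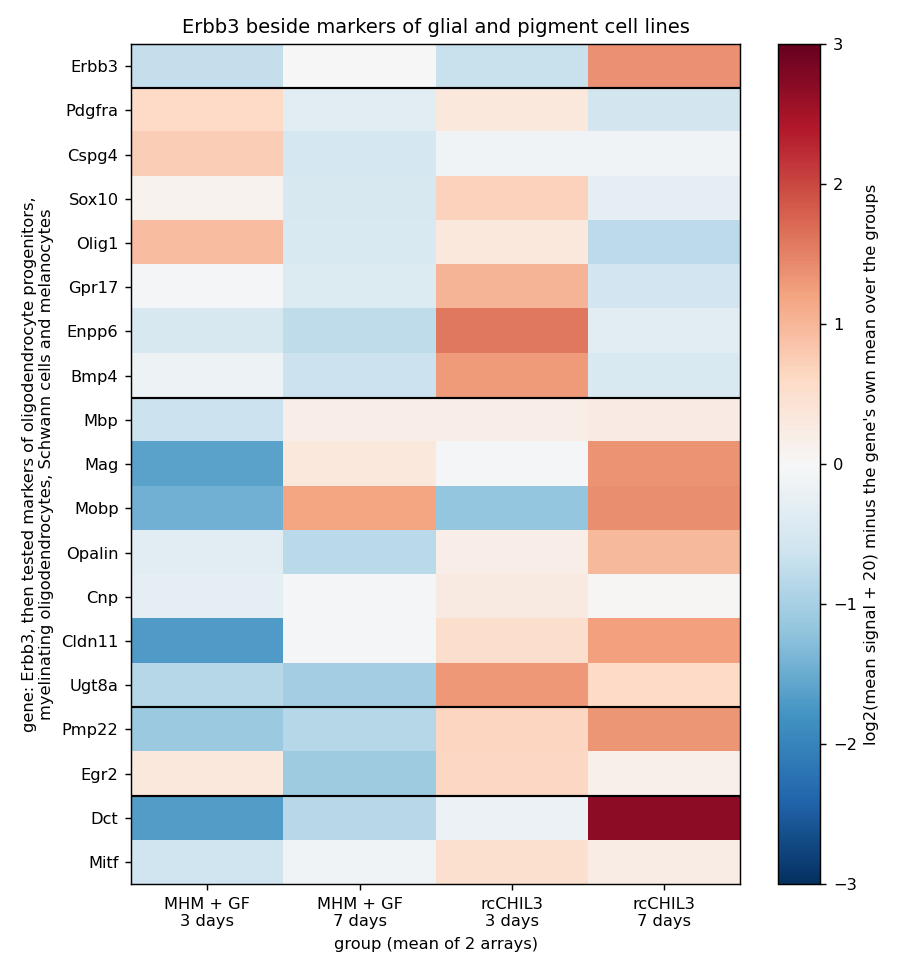
Group means of Erbb3 (top) and of the tested markers of 4 cell lines as log2(mean signal + 20) minus each gene's own mean over the groups (colour, red higher and blue lower), in 4 columns for the groups. Erbb3, Mag, Cldn11, Pmp22 and Dct were highest in rcCHIL3 at 7 days, but Cnp, Ugt8a, Egr2 and Mitf of the same lists were highest in rcCHIL3 at 3 days. All the oligodendrocyte progenitor markers shown were below their 3-day level at 7 days in both media.

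Hbegf, which encodes the membrane-anchored EGF receptor ligand HB-EGF, had both of its probe sets tested. Signals of 1418350_at were 93.1 and 90.2 in MHM + GF at 3 days, 37.9 and 34.1 in MHM + GF at 7 days, 109 and 135 in rcCHIL3 at 3 days, and 50.8 and 50.4 in rcCHIL3 at 7 days. The order followed time first and medium second, and no pair of groups overlapped. It fell by 1.00 on the log2 scale with time in MHM + GF (SE 0.11, adjusted p = 1.1e-05, limma) and by 1.00 in rcCHIL3 (SE 0.11, adjusted p = 3e-05, limma), where 26.0% and 17.9% of all probe sets fell. Between the media it was higher in rcCHIL3 by 0.34 at 3 days (SE 0.11, adjusted p = 0.019, limma) and by 0.34 at 7 days (SE 0.11, adjusted p = 0.024, limma). The medium effect differed between the days by 0.00 (95% interval -0.33 to 0.32). The higher level at 3 days was lost with the signals as deposited (adjusted p = 0.18, limma), without the second array of rcCHIL3 at 3 days (log2 change 0.21, adjusted p = 0.19, limma) and without the first or the second array of MHM + GF at 3 days (adjusted p = 0.055 and 0.081, limma). That at 7 days was lost without the second array of MHM + GF (adjusted p = 0.12, limma), without the first or the second array of rcCHIL3 at 7 days (adjusted p = 0.079 and 0.077, limma) and with no filter (adjusted p = 0.059, limma).

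The other probe set of Hbegf (1418349_at) had signals of 51.9 and 66.8, 27.4 and 31.2, 93.2 and 71.7, and 38.8 and 71.4 in the same order, with rcCHIL3 at 7 days spread widest. It fell by 0.68 with time in MHM + GF (SE 0.18, adjusted p = 0.0082, limma), which without the second array of MHM + GF at 3 days no longer passed (adjusted p = 0.070, limma). Its log2 change in rcCHIL3 was -0.48 (adjusted p = 0.066, limma), and without the second array of rcCHIL3 at 7 days it was -0.79 (adjusted p = 0.0053, limma). The log2 change between the media was 0.37 at 3 days (adjusted p = 0.12, limma), which passed without the first or the second array of rcCHIL3 at 7 days (adjusted p = 0.039 and 0.040, limma). At 7 days it was higher by 0.57 (adjusted p = 0.026, limma), but the change was 0.26 without the second array of rcCHIL3 at 7 days (adjusted p = 0.25, limma). It did not pass either without the first or the second array of MHM + GF at 7 days (adjusted p = 0.10 and 0.057, limma), or with no filter (adjusted p = 0.098, limma), nor under the methods' test.

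Fgfr1, the FGF receptor with a broad role in neural progenitors, had 1 tested probe set (1424050_s_at). Its signals were 156 and 183 in MHM + GF at 3 days, 321 and 367 in MHM + GF at 7 days, 130 and 126 in rcCHIL3 at 3 days, and 260 and 245 in rcCHIL3 at 7 days. None of the groups overlapped, and in both media the 7-day arrays were above the 3-day arrays. It rose by 0.94 in MHM + GF (SE 0.09, adjusted p = 5.4e-06, limma) and by 0.88 in rcCHIL3 (SE 0.09, adjusted p = 2.7e-05, limma), where 31.1% and 18.0% of all probe sets rose. It was lower in rcCHIL3 by a log2 change of -0.35 at 3 days (SE 0.09, adjusted p = 0.0077, limma) and -0.41 at 7 days (SE 0.09, adjusted p = 0.0037, limma). The difference between these effects was -0.06 (95% interval -0.35 to 0.22). Without the second array of MHM + GF at 3 days, the effect at 3 days was -0.25 and no longer passed (adjusted p = 0.075, limma), and the effect at 7 days no longer passed with the signals as deposited (-0.34, adjusted p = 0.076, limma). The 2 dim probe sets of Fgfr1 had signals of 18.0 to 45.0. Of these, 1436551_at was also higher at 7 than at 3 days in MHM + GF in the fit without a filter (log2 change 0.69, adjusted p = 0.0019, limma), where 13.0% of all probe sets were higher. The change of 1425911_a_at over that time was 0.12 and did not pass. Between the media at 3 and 7 days, 1436551_at changed by 0.12 and -0.19 and 1425911_a_at by -0.27 and 0.14. None of these passed, so they did not repeat the lower level in rcCHIL3.

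Fgfr2, a receptor known in glial progenitors, had 2 tested probe sets that did not run alike. Signals of 1433489_s_at were 157 and 111 in MHM + GF at 3 days, 236 and 261 in MHM + GF at 7 days, 261 and 221 in rcCHIL3 at 3 days, and 243 and 223 in rcCHIL3 at 7 days. MHM + GF at 3 days was the low group, and the other 3 overlapped. The signal was 1.80-fold higher in rcCHIL3 at 3 days (log2 change 0.78, SE 0.13, adjusted p = 0.00041, limma) and rose by 0.82 with time in MHM + GF (SE 0.13, adjusted p = 0.00024, limma). The change between the media at 7 days was -0.09 (95% interval -0.37 to 0.20), and the change with time in rcCHIL3 was -0.04 (95% interval -0.33 to 0.24). The rcCHIL3 effect was lower at 7 than at 3 days by a log2 difference of -0.86 (SE 0.18, adjusted p = 0.0030, limma). Signals of 1420847_a_at lay between 36.7 and 59.7, with log2 changes between the media of 0.21 at 3 days (95% interval -0.07 to 0.50) and 0.21 at 7 days (95% interval -0.07 to 0.50), neither of which passed. The remaining probe set (1443211_at) did not exceed 12.3.

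Fgfr3, a receptor of astrocyte and neural progenitor populations, had 1 tested probe set (1421841_at). Its signals were 634 and 619 in MHM + GF at 3 days, 250 and 259 in MHM + GF at 7 days, 340 and 340 in rcCHIL3 at 3 days, and 324 and 305 in rcCHIL3 at 7 days. MHM + GF at 3 days stood highest, MHM + GF at 7 days lowest, and both rcCHIL3 groups lay between them. At 3 days the signal was 1.84-fold lower in rcCHIL3 (log2 change -0.85, SE 0.06, adjusted p = 9e-07, limma), and at 7 days it was 1.24-fold higher (log2 change 0.28, SE 0.06, adjusted p = 0.0045, limma). It fell by 1.24 with time in MHM + GF (SE 0.06, adjusted p = 3.9e-08, limma), whereas the log2 change in rcCHIL3 was -0.11 (95% interval -0.25 to 0.04). The effect of rcCHIL3 thus turned from lower to higher between the days, with a difference of 1.13 (SE 0.09, adjusted p = 3.3e-06, limma). The second probe set (1425796_a_at) was under the filter, with signals of 33.3 and 32.8 in MHM + GF at 3 days and at most 18.0 on all other arrays. In the fit without a filter it was lower in rcCHIL3 at 3 days (log2 change -0.72, adjusted p = 0.016, limma). It was also lower at 7 than at 3 days in MHM + GF (-1.07, adjusted p = 0.0017, limma), where 10.6% of all probe sets fell with time. At 7 days the media overlapped and the change of 0.33 did not pass (adjusted p = 0.25, limma). This probe set therefore did not repeat the higher level in rcCHIL3 at 7 days.

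The RefSeq promoters of Fgfr3 are shown because it was the FGF receptor with the largest change, over all 4 comparisons of groups, among the tested probe sets. The table gives a pair of starts, and the 250 bases before each are printed 5′ to 3′ on the + strand, with GC boxes in capitals, from chr5:33721474-33721723 and chr5:33722056-33722305 of GRCm38.p6.
Fgfr3 start 1: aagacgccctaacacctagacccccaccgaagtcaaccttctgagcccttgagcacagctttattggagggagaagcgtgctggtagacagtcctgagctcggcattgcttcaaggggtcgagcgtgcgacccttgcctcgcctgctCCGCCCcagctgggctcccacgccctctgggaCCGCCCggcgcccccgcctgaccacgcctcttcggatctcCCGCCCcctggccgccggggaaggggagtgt
Fgfr3 start 2: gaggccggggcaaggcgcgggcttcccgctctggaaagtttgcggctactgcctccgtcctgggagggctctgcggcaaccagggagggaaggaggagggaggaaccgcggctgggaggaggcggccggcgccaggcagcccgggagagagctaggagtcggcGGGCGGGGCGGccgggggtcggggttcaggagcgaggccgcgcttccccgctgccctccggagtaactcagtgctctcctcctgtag
The first held 3 GC boxes with 66.8% G and C and 19 CpG dinucleotides, and the second held 2 overlapping GC boxes with 72.8% and 24. The promoters of Erbb2, Erbb4 and Fgfr2 had 66.0%, 54.0% and 44.0% G and C and 0 GC boxes. The letters of the other 4 motifs were in none of these 6 promoters.

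**Figure D3:**
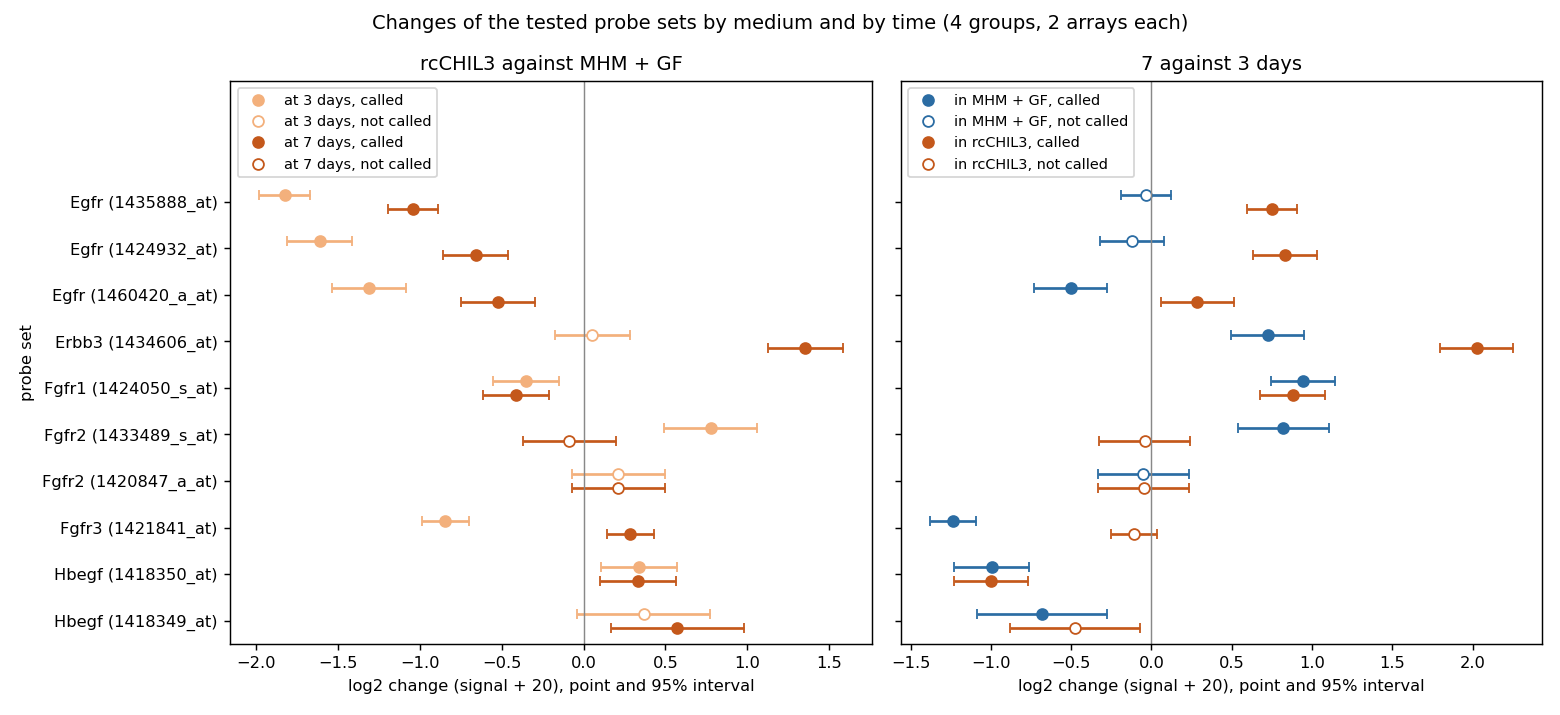
Log2 change on the log2(signal + 20) scale (x axis) with its 95% interval for each tested probe set (y axis), by medium on the left and by time on the right, with filled points for changes past the threshold and open points for others. Egfr lay left of 0 at both days and nearer to it at 7 days, Fgfr3 crossed from -0.85 to 0.28, and Fgfr1 and Hbegf (1418350_at) moved by time about equally in both media.

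With time, 3 of the 10 probe sets rose and 4 fell in MHM + GF, and 5 rose and 1 fell in rcCHIL3. Over the array, 31.1% rose and 26.0% fell in MHM + GF, and 18.0% and 17.9% did so in rcCHIL3. Erbb3 and Fgfr1 rose in both media and Hbegf (1418350_at) fell in both. The effect of the medium differed between the days for 6 of the 10, with 5 higher at 7 than at 3 days (3 of Egfr, Erbb3 and Fgfr3) and 1 lower (Fgfr2). Over the array, 18.7% and 22.7% of all tested probe sets differed in these directions. Erbb3 passed the filter only through rcCHIL3 at 7 days. Its places in the counts for time in rcCHIL3 and for the difference between the days are therefore a description. The comparisons share arrays, so they are not independent of each other. On the scale as deposited the median of all probe sets shifted to 0.10 for time in rcCHIL3 and to 0.12 for the difference between the days, against 0.00 and -0.04 here. The share of calls that were higher went from 55.1% to 42.6% at 3 days, from 48.5% to 63.8% at 7 days, from 54.5% to 46.4% for time in MHM + GF, from 50.2% to 68.9% for time in rcCHIL3 and from 45.3% to 67.2% for the difference. No direction named for a member turned on that scale.

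Genes around the receptors were read at the brightest tested probe set of each gene, at which 22.1% of 8975 genes were lower and 30.3% higher in rcCHIL3 at 3 days, and 22.6% lower and 21.8% higher at 7 days. Of 10 EGF family ligands, 1 was tested. This was Tgfa, which encodes TGF-alpha, a ligand of EGFR, with a mean signal of 90.4 in MHM + GF and 205 in rcCHIL3 at 3 days (log2 change 1.03, SE 0.08, adjusted p = 1.1e-06, limma). Its change at 7 days was 0.32 (adjusted p = 0.0078, limma). Of 19 FGF ligands, 3 were tested, of which 1 was higher at 3 days, and 2 were higher and 1 lower at 7 days. Fgf1, a secreted FGF, was higher by 0.71 at 7 days (adjusted p = 0.00016, limma), and of the non-secreted FGFs Fgf11 was higher by 0.96 (adjusted p = 1.2e-05, limma) while Fgf13 had a log2 change of -1.0 (adjusted p = 5.9e-06, limma). The genes of the factors added to MHM + GF were dim: Fgf2 did not exceed a mean of 2.15 in any group, and Egf did not exceed 24.6.

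Of 14 other FGF receptors and co-receptors, 11 were tested. At 3 days 3 were higher and 4 lower, and at 7 days 5 were higher and 3 lower. Sdc3, a syndecan, had means of 366 in MHM + GF and 73.9 in rcCHIL3 at 3 days, a log2 change of -2.04 (SE 0.08, adjusted p = 3.8e-09, limma). Fgfrl1, an FGF receptor without a kinase domain, changed by -0.62 at 3 days (adjusted p = 4.7e-05, limma). The glypican Gpc6 was higher by 1.11 (adjusted p = 1.5e-06, limma) and the syndecan Sdc2 by 0.64 (adjusted p = 9e-05, limma) at 7 days. Fgfr4 did not exceed a mean of 12.1 in any group.

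Of 8 genes tied to ligand shedding, the freeing of HB-EGF and TGF-alpha from the membrane, 6 were tested. At 3 days 2 were higher and 2 lower, and at 7 days 1 was higher. One of the 2 higher at 3 days was the inhibitor Timp3, so the counts mix opposite functions. The metalloproteinase Adam12 had means of 237 in MHM + GF and 21.1 in rcCHIL3 at 3 days (log2 change -2.65). It passed the filter only through MHM + GF at 3 days, so it had to be highest there and the change is a description. Adam9 was lower at 3 days (-0.61, adjusted p = 8.8e-06, limma) and higher at 7 days (0.54, adjusted p = 4.8e-05, limma). Timp3, an inhibitor of metalloproteinases, was higher by 0.81 at 3 days (adjusted p = 2.4e-05, limma).

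Of 17 receptor inhibitors and genes of receptor degradation, 16 were tested, with 4 higher and 6 lower on each day. Socs3, a cytokine-signalling inhibitor, was higher by 1.05 (adjusted p = 8.7e-08, limma) at 3 days. The phosphatase gene Ptprj had a log2 change of 0.87 at 3 days and passed the filter only through rcCHIL3 at 3 days. Il17rd, an inhibitor of FGF signalling that passed the filter only through MHM + GF arrays, had a log2 change of -1.35 at 7 days (adjusted p = 6.8e-06, limma). Flrt3, whose product binds FGF receptors and is known to promote rather than inhibit FGF signalling, had one of -1.22 at 3 days and passed the filter only through MHM + GF at 3 days. In all, 4 of the 16 passed through 1 group alone and had to be highest there. Il17rd and Flrt1 passed only through arrays of 1 medium, MHM + GF and rcCHIL3 in that order. Their direction between the media was therefore also fixed, and the counts and the changes of these genes are descriptions.

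Of 23 adaptors and genes of the RAS-ERK core, 17 were on the array under one symbol and 14 were tested, with 6 higher and 3 lower at 3 days and 2 higher and 3 lower at 7 days. The kinase gene Map2k1 was higher by 0.95 at 7 days (adjusted p = 3e-05, limma) and Araf, a RAF kinase, by 0.66 at 3 days (adjusted p = 1.7e-05, limma). The falls were smaller, with -0.39 for the phospholipase Plcg1 (adjusted p = 0.0024, limma) and -0.37 for the adaptor Crkl (adjusted p = 0.0054, limma) at 3 days.

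Of 15 genes of ERK feedback and targets, 12 were tested, and at 3 days 8 were lower in rcCHIL3 and 0 higher. Of the 12, Spry1, Etv4 and Dusp4 passed the filter through 1 group of MHM + GF alone and had to be highest there, and Spry1 and Etv4 are among the 8, so the counts and medians are descriptions. The log2 change had a median over the 12 of -0.95, and that of all genes tested was 0.04. The transcription factor Etv5 had means of 361 in MHM + GF and 32.5 in rcCHIL3 at 3 days (log2 change -2.86, SE 0.11, adjusted p = 5e-09, limma), and Ccnd1, a cyclin of G1 phase, had 866 and 131 (-2.56, SE 0.07, adjusted p = 6.7e-10, limma). The ERK phosphatase gene Dusp6, named after its values were seen, had means of 236 and 76.9 (-1.40). At 7 days 4 of the 12 were lower, Etv4 and Dusp4 among them, and 1, Phlda1, was higher (1.12, adjusted p = 1.6e-06, limma), and the median was -0.06. The rcCHIL3 effect on 9 of the 12 was higher at 7 than at 3 days, and on 0 it was lower, where 19.2% and 24.1% of all genes tested differed in these directions.

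**Figure D4:**
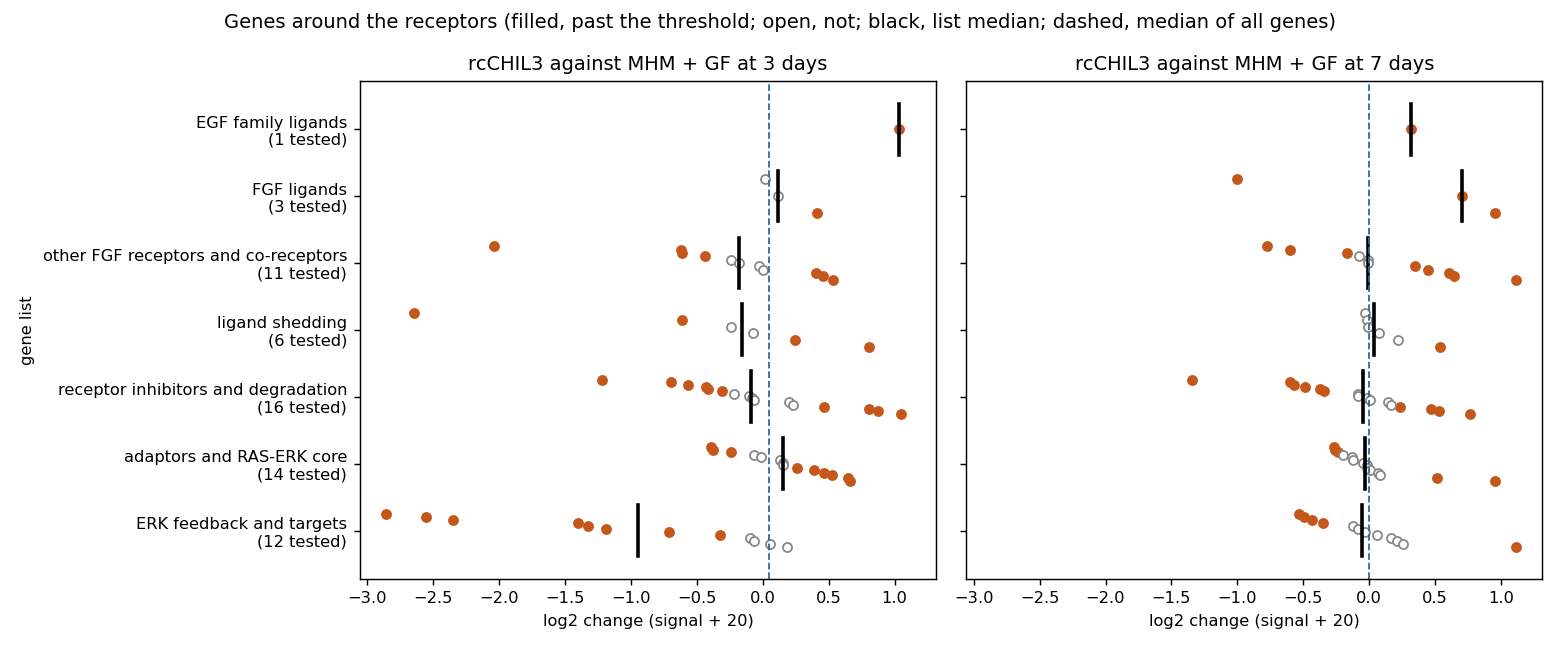
Log2 change in rcCHIL3 against MHM + GF (x axis) of the tested genes of 7 lists around the receptors (y axis) at 3 days and 7 days, with filled points for genes past the threshold, black lines for list medians and a dashed line for the median of all genes. The median of ERK feedback and targets was -0.95 at 3 days and -0.06 at 7 days, while the medians of the 4 other lists with more than 3 tested genes lay between -0.18 and 0.15 on both days.

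Across the 8 arrays, which are 4 groups of 2, the patterns of the members were compared by Pearson correlation as a description. The 3 Egfr probe sets correlated with each other at 0.92 to 0.99. Fgfr1 and Hbegf (1418350_at) correlated at -0.99 and Fgfr2 (1433489_s_at) and Fgfr3 at -0.89. The 2 Hbegf probe sets correlated at 0.79 and the 2 of Fgfr2 at 0.34. The genes nearest to Egfr over these arrays were Cmtm3 (0.995), Birc2 (0.991) and Dek (0.991). Nearest to Fgfr3 were Hnrnpdl (0.994), Prmt6 (0.993) and Cspg4 (0.992), the last an oligodendrocyte progenitor marker. Cspg4 had means of 148 and 49.8 in MHM + GF and 74.4 and 73.2 in rcCHIL3 at 3 and 7 days. Its list did not run alike: of 7 tested markers, 4 were higher in rcCHIL3 at 3 days and 3, Cspg4 among them, lower. Cspg4 was also the 1 marker of these whose fall with time in rcCHIL3 did not pass. Nearest to Fgfr1 were 2810459M11Rik (0.993), Pygl (0.993) and Rbm39 (0.989), and to Fgfr2 Anks1 (0.993), Fbrsl1 (0.983) and Bicd2 (0.977). Nearest to Hbegf were Pcdh7 (0.994), Tlcd1 (0.987) and Fxr1 (0.987). Nearest to Erbb3 were C230072F16Rik (0.994), the myelin gene Mal (0.985) and Htra1 (0.983).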

How the data were processed

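Total RNA of 8 neurosphere cultures was hybridised to Affymetrix mouse arrays, 2 arrays for each of 4 groups taken from the sample labels. The deposited values are linear signal intensities that the authors made with the MAS5 algorithm (Affymetrix Expression Console 1.1 per the labels). The deposited averages differ between arrays, so all arrays were brought to the same average of 100 by one factor per array, which makes every change relative to that average. Values were taken as log2(signal + 20), a scale that understates changes of dim probe sets. Probe sets with a signal of at least 50 on at least 2 of 8 arrays were kept, and 64 array controls were left out of the tests. limma 3.58.1 in R 4.3.3 (lmFit, eBayes with trend) was fitted to 4 group means with 4 residual degrees of freedom, with Benjamini-Hochberg adjustment over 15679 probe sets for each of 5 contrasts and a two-sided threshold of 0.05. The fit was tested on simulated data. Group means and SDs are of linear signals, and folds are ratios of these means.

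Gene symbols come from the annotation of the array: 34958 probe sets have 1 symbol, 932 several and 9211 none, and only the first were used. Levels of different probe sets were not compared. The genes and lists were chosen with earlier results of these data known. All 8 genes are named, and of each pathway list up to 2 genes with the largest rise and 2 with the largest fall between the media, the 3 genes nearest in pattern to each member with a called probe set, and markers beside results they move with; others are marked where they appear. The methods state 2 independent experiments. Promoters are from RefSeq (GRCm38.p6), read with Python 3.11.15. Alternatives covered scaling, offset, filter, model, the methods' test and leaving out each array.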

Additional observations from a re-analysis of the deposited data

Results flagged for a closer look

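For 6 probe sets the effect of rcCHIL3 differed between 7 and 3 days in the test of that difference itself (limma, adjusted over 15679 probe sets). The log2 difference was 1.30 for Erbb3 (SE 0.15, adjusted p = 3.9e-05), a probe set that passed the filter only through rcCHIL3 at 7 days, and 1.13 for Fgfr3 (SE 0.09, adjusted p = 3.3e-06), whose effect turned from lower to higher. For Egfr it was 0.95 (1424932_at, SE 0.13, adjusted p = 0.00015), 0.79 (1460420_a_at, SE 0.15, adjusted p = 0.0013) and 0.78 (1435888_at, SE 0.10, adjusted p = 9.1e-05). For Fgfr2 (1433489_s_at) it was -0.86 (SE 0.18, adjusted p = 0.0030). For Fgfr2 and Fgfr3 the level changed with time in MHM + GF (log2 change 0.82 and -1.24) and did not pass in rcCHIL3, and for Egfr (1435888_at) it changed in rcCHIL3 (0.75) and did not pass in MHM + GF. With 2 arrays per group no single array could be tested as standing apart.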

How the results depend on the processing

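No direction of a called change reversed under any alternative. With the signals as deposited, 10 of 15 probe sets over the filter passed for time in rcCHIL3 (8 higher, 2 lower), against 6 of 10. That setting changes both the scale and which probe sets pass the filter, and the cause was not tested. With no filter, 6 of 21 passed at 7 days, against 8 of 10, and both Hbegf calls were among those lost. The methods' test at its unadjusted threshold of 0.05 gave 4 in place of 7 between the media at 3 days, without Fgfr1, Fgfr2 (1433489_s_at) and Hbegf (1418350_at), and after Benjamini-Hochberg adjustment 4, 0, 3 and 0 for the media at 3 and 7 days and time in MHM + GF and rcCHIL3. Over all probe sets it gave 6490, 5167, 6582 and 4868 before adjustment and 2296, 97, 2256 and 0 after it. With the brightest probe set of each gene alone, 5 of 6 passed at 7 days, against 8 of 10, as fewer were tested. Leaving out 1 array at a time gave 5 to 8 at 3 days, 6 to 8 at 7 days, 6 to 7 for time in MHM + GF, 5 to 6 for time in rcCHIL3 and 6 for the difference between the days. Of single changes, 380 kept their side of the threshold when an array was left out, 17 lost it and 3 gained it; under the other alternatives 452 kept it, 16 lost it and 2 gained it. The losses were in Egfr (1460420_a_at), Fgfr1, Fgfr2 and Hbegf. The cause was not tested.

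The labels number the arrays #1 and #2 in each group, but deviations of same-numbered arrays correlated at -0.01 to 0.10, so the numbers were not taken as pairs. With the numbers as a replicate block, the counts were 7, 8, 7, 6 and 6, as without it. Signals near or under 20 have little range on the log2(signal + 20) scale, which limits what can be said of Erbb2, Erbb4 and the dim probe sets.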
